A study of Vitis vinifera with 6 samples.

Results

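The 56 genes described here are grapevine (Vitis vinifera) gene models that were much lower in flowers and young berries than in ripe berries. This held in a seeded clone as well as in its seedless somatic variant. They were chosen by their measured levels in 4 steps. A gene needed at least 100 reads per 1000000 (RPM) in both ripe berry libraries, and its RPM there, with 0.5 RPM added to every value, had to be at least 20 times that of the flower library and of the young berry library of the same clone. The mutant had to lie below 2 times the wild-type in ripe berries and above a level 8 times lower, and identifiers starting with VIT_02s0025g, VIT_05s0094g or VIT_16s0100g were left out. Of 28059 gene models, 1993 reached 100 RPM in both ripe berry libraries and 63 of these passed 20 times in both clones. The upper bound on the mutant removed 1 gene, the lower bound removed 0, and 6 genes carried a prefix that was left out.

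The wild-type is Sangiovese, a seeded wine cultivar, and the mutant is a spontaneous seedless clone derived from it, with smaller berries and bunches at harvest. From each clone 1 mRNA-Seq library was made of flowers before fertilization (stage E-L 15 of the grapevine scale, flowers still in tight clusters), 1 of young enlarging berries at E-L 27 and 1 of harvest-ripe berries at E-L 38, with no further treatment. Each library holds RNA of 3 extractions from a single biological replicate, which were pooled, so that no comparison of 2 libraries has a replicate check within the sequencing. Both clones were collected on the same days, and a difference between the clones cannot be told apart from a difference in maturity at collection. In whole flowers and berries, fewer cells of a type and less RNA per cell cannot be told apart either.

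A grape berry first grows while it is green and hard, and after a pause it begins to ripen: it softens, loads sugar, loses acid and, in red cultivars, colours its skin. These changes go with a broad reprogramming of transcription in skin and flesh, in which genes that are nearly silent in the green berry become some of the most abundant transcripts of the fruit. Softening involves proteins of the cell wall, expansins among them, which loosen the contacts between wall polymers without cutting them. No library covers the onset of ripening between E-L 27 and E-L 38, so the data show the ripe state and not when each gene reached it.

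Of the 56 members, the sources used here annotate 1 by identifier, VIT_15s0021g02700, a beta-expansin (EXPB4). The other members are given by identifier only, with no role. The study ran real-time PCR on both biological replicates of each stage, of which 1 was sequenced, for a set of genes that included EXPB4. It reported profiles that matched the sequencing for all of them, with replicates alike in most cases. The sequences available for the members are the primers designed for this real-time PCR of EXPB4, on chromosome 15. They are shown because they state which transcript was followed under this name, and they are written from 5′ to 3′ in lower case.
EXPB4 forward primer: agtcttggggtgccgtttgg
EXPB4 reverse primer: gccatcccgctggaatgaca

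Between 70331451 and 98800321 reads were counted per library, so that 1 read is 0.0101 to 0.0142 RPM. RPM values are not divided by gene length, and a level is therefore a share of reads and was compared between libraries, not between genes. The libraries carried their labelled stage in the flower genes PISTILLATA, AP3, MS1 and MS2, which summed to 1127 RPM (wild-type) and 946 RPM (mutant) in flowers, to 23.2 and 11.6 RPM in young berries and to 0.0709 and 1.20 RPM in ripe berries. In flowers PISTILLATA had 969 and 854 RPM and AP3 107 and 84.4 RPM. MS1, with 29.9 and 3.18 RPM, and MS2, with 20.5 and 3.67 RPM, differed more between the clones. A list of 10 seed genes summed to 1153 RPM in wild-type ripe berries and to 2.17 RPM in those of the mutant, with no more than 19.3 RPM in any other library. The study chose both lists on these libraries, so they are no independent check of the labels. On the RPM scale the median gene was at a log2 difference of -0.32 (wild-type) and -0.40 (mutant) between ripe and young berries. With TMM factors these medians were -0.01 and 0.00, and the median of the members moved from 6.27 to 6.57 and from 6.93 to 7.32.

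As a set, the members were a minor part of the reads of flowers and young berries and a large part of those of ripe berries. Together they held 0.0520%, 0.0878% and 8.25% of the reads of wild-type flowers, young berries and ripe berries, and 0.0481%, 0.0533% and 10.5% of those of the mutant. In the same order, the median member had 2.53, 6.17 and 395 RPM in the wild-type and 2.699, 3.01 and 474 RPM in the mutant. In both E-L 38 libraries 18 of the 100 genes with the most reads were members, and among the first 10 there were 5 (wild-type) and 7 (mutant). No other library had a member among its first 100. The rule fixed these differences, which are therefore given with no test.

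The ripe berry reads were concentrated in a few members. VIT_05s0049g00520 had 3.53, 50.8 and 12815 RPM in flowers, young berries and ripe berries of the wild-type and 0.898, 16.6 and 19835 RPM in the mutant. VIT_12s0059g00590 had 164, 132 and 11925 RPM in the wild-type and 134, 56.7 and 12453 RPM in the mutant. Both genes were higher in ripe berries of the mutant and lower in its young berries. VIT_05s0049g00760 had 1.80, 13.95 and 7428 RPM in the wild-type and 0.284, 1.38 and 10027 RPM in the mutant. VIT_19s0090g01350 had 1.36, 75.3 and 5859 RPM in the wild-type and 0.102, 25.04 and 8142 RPM in the mutant. The same held for these genes, so that all 4 had the higher ripe berry level and the lower young berry level in the mutant.

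**Figure D1:**
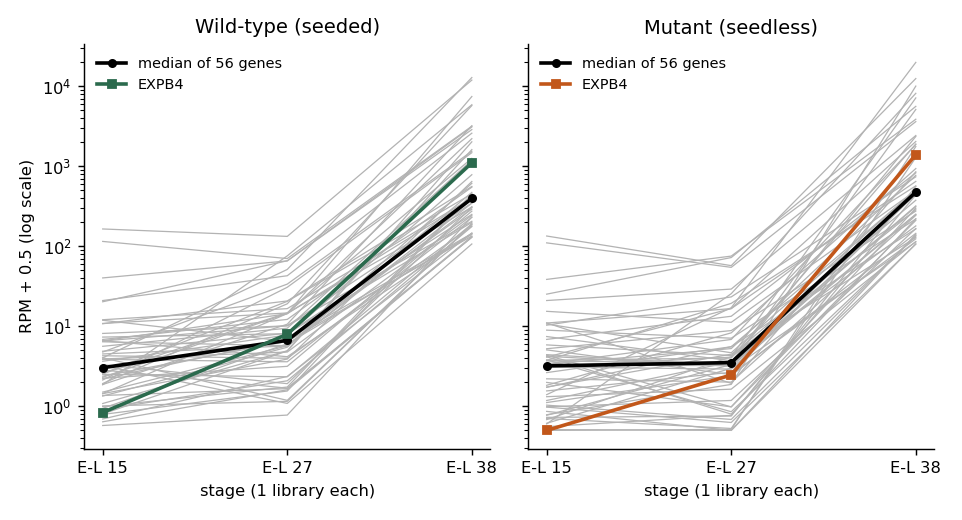
RPM with 0.5 added (log scale) of the 56 members by stage, with 1 panel per clone, 1 grey line per member, the median in black and EXPB4 in colour. Before 0.5 was added, the median member lay between 2.53 and 6.17 RPM in the 4 flower and young berry libraries and at 395 and 474 RPM in the ripe berry libraries.

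Across the members the smallest of the 4 ratios of E-L 38 to an earlier stage ran from 20.2 to 514, with a median of 60.0, and 15 members reached 100 in all 4. Past the same 20 times, among genes that averaged 1 RPM or more in the 2 libraries, were 1.13% and 0.975% of all genes (wild-type, mutant) between ripe and young berries, and 1.59% and 1.17% between ripe berries and flowers. The largest smallest ratio belonged to VIT_05s0049g00760 (514), followed by VIT_01s0011g05110 (411), VIT_11s0016g04920 (326), VIT_06s0004g02560 (301), VIT_19s0090g01370 (299.8) and VIT_08s0040g01200 (286). In 39 of 56 members the smallest of the 4 ratios was that of ripe to young berries of the wild-type, so the wild-type young berry was most often the library nearest to the ripe level. Just inside the threshold lay VIT_14s0068g01760 (20.2), VIT_01s0011g06460 (20.7) and VIT_03s0038g03570 (20.9). The genes just outside it were VIT_12s0034g01950 (18.9), VIT_18s0001g00360 (18.3) and VIT_05s0020g05040 (17.7).

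EXPB4 belonged to the steep members. It had 0.335, 7.44 and 1103 RPM in the wild-type at the 3 stages and 0.00, 1.96 and 1396 RPM in the mutant. Its count in mutant E-L 15 was 0 reads, which allows up to 0.0341 RPM (3 reads, counting error only). The ripe berry level was 1.27 times as high in the mutant, and the young berry level 3.79 times lower (95% exact conditional binomial interval, Clopper-Pearson, 3.15 to 4.59). Such intervals cover counting error between 2 libraries only. Expansins of this class were first known from grass pollen, where they loosen walls for the pollen tube.

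Before ripening, many members were already higher in young berries than in flowers. The rule did not use this ratio. It did hold both levels at least 20 times below the ripe level of the same clone (0.5 RPM added), which was not asked of all genes. A gene was counted when the RPM ratio of young berries to flowers, with 0.5 RPM added, passed 2 times and the 2 libraries averaged 1 RPM or more. In the wild-type 24 of 50 such members were higher and 2 lower, against 9.24% and 8.66% of all genes. In the mutant 16 of 43 were higher and 9 lower, against 8.29% and 9.19% of all genes. The median log2 ratio of the members was 0.89 for the wild-type and 0.60 for the mutant, and 0.00 and -0.02 for all genes. With no filter, over all 56 members, the medians were 0.89 and 0.29, and 44 members (wild-type) and 32 (mutant) were above the flower level by any size. Past the filter, 12 of 50 members (wild-type) and 18 of 43 (mutant) were below it, against 49.7% and 51.7% of all genes. Among the 101 genes with a smallest ratio from 5 to under 20, 29 were higher and 4 lower in the wild-type, and 16 were higher and 5 lower in the mutant.

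With the 2 clones taken as replicates of a stage, the quasi-likelihood test of edgeR over all 6 libraries, with terms for stage and clone, called 18 of 56 members higher and 4 lower in young berries than in flowers at a Benjamini-Hochberg adjusted p below 0.05. Over all genes 10.7% were called higher and 11.4% lower. The median log2 change was 0.93 for the members and 0.01 for all genes. The clones are not replicates in the strict sense, and only 2 residual degrees of freedom were left. When any 1 of the 4 libraries of E-L 15 and E-L 27 was left out, 0 members were called in edgeR, with 17 to 32 higher and 3 to 14 lower at an unadjusted p below 0.05, against 10.2% to 11.6% and 10.5% to 11.9% of all genes. Of these, 17 higher and 14 lower came without wild-type E-L 27. Without wild-type E-L 27 the median of the members was 0.07, and without any 1 of the other 5 libraries it lay between 0.91 and 1.15. The fit of all 6 libraries also took its scatter from the E-L 38 libraries, where the rule bounded the clone ratio of the members. With the 4 libraries of E-L 15 and E-L 27 only, edgeR called 27 of 55 members higher and 6 lower. Over all genes that fit called 20.8% higher and 21.3% lower.

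The largest of these changes was that of VIT_19s0090g01350, which went from 1.36 to 75.3 RPM in the wild-type and from 0.102 to 25.04 RPM in the mutant. It rose by 6.21 ± 1.07 on the log2 scale (SE, edgeR adjusted p = 0.0265). EXPB4 rose by 4.75 ± 1.08 over both clones (edgeR adjusted p = 0.0465), with 0 reads in mutant flowers. The study, which compared stages within each clone, reported this rise for the mutant alone and stable expression in the wild-type. VIT_05s0049g00520 rose by 3.96 ± 0.80 (edgeR adjusted p = 0.0365) and VIT_14s0081g00030, with 1.63 and 30.2 RPM in the wild-type and 1.33 and 7.78 RPM in the mutant, by 3.47 ± 0.48 (edgeR adjusted p = 0.0175). These members left the flower level well before the ripe stage, yet at E-L 27 the highest of their shares of the E-L 38 level was 2.05%, that of VIT_14s0081g00030 in the wild-type. VIT_19s0090g01370, the neighbour of the first, had 1.43 and 18.6 RPM in the wild-type and 0.182 and 3.65 RPM in the mutant and missed the threshold (log2 change 3.78 ± 0.94, edgeR adjusted p = 0.0558). VIT_02s0012g00500 had 0.194 and 1.86 RPM in the wild-type and 0.114 and 2.49 RPM in the mutant, and rose by 3.79 ± 0.38 (edgeR adjusted p = 0.0108). It was 1 of the 8 members, of 46 that averaged 1 RPM or more, with a higher young berry level in the mutant.

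A smaller group went the other way, from flower to young berry, before the high ripe level. VIT_18s0001g06060 had 3.54, 0.687 and 187 RPM in the wild-type and 3.84, 0.483 and 210 RPM in the mutant. It fell by 2.62 on the log2 scale between the 2 stages (SE 0.21, edgeR adjusted p = 0.00790). VIT_15s0048g00830 had 2.72, 0.587 and 106 RPM in the wild-type and 3.30, 0.355 and 134 RPM in the mutant, and it also fell by 2.62 (SE 0.30, edgeR adjusted p = 0.0124). Both genes thus had their lowest level in young berries in both clones. VIT_08s0056g01600 fell by 0.85 (SE 0.20, edgeR adjusted p = 0.0478) and VIT_08s0056g01590 by 0.93 (SE 0.20, edgeR adjusted p = 0.0419). VIT_12s0035g01910 had 2.82 and 1.42 RPM in flowers and young berries of the wild-type and 3.66 and 0.299 RPM in the mutant (log2 change -1.99 ± 0.60, edgeR adjusted p = 0.0823). VIT_01s0127g00470 had 11.4 and 5.98 RPM in the wild-type and 10.2 and 4.17 RPM in the mutant (log2 change -1.07 ± 0.37, edgeR adjusted p = 0.110). Neither of these passed the threshold.

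Clone by clone, 49 members averaged 1 RPM or more over the 4 flower and young berry libraries. Of these, 16 were more than 2 times higher in young berries than in flowers in both clones, against 6.51% of all genes. Another 7 were higher in the wild-type and within 2 times in the mutant (2.51% of all genes), and 2 were higher in the mutant and within 2 times in the wild-type (1.77%). In both clones 2 were more than 2 times lower (7.18%), while 7 were lower in the mutant and within 2 times in the wild-type (2.02%). In 14 members both ratios stayed within 2 times, against 78.5% of all genes. The remaining member, VIT_05s0049g00770, was higher in the wild-type and lower in the mutant, as were 0.0575% of all genes. With no filter the 7 other members divided into 2 that were higher in the wild-type alone and 5 within 2 times in both. The difference between the clones in this step was not tested, since each ratio rests on 2 libraries.

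**Figure D2:**
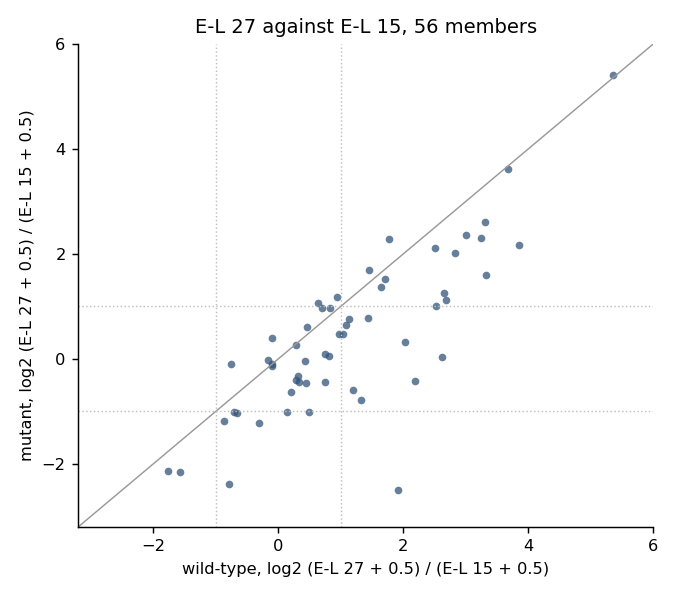
Log2 ratio of E-L 27 to E-L 15 (0.5 RPM added, no filter) of each of the 56 members, with the mutant on the vertical and the wild-type on the horizontal axis, a solid line at equality and dotted lines at 2 times. 16 members passed 2 times upwards in both clones and 2 passed it downwards in both.

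In young berries the members were lower in the mutant. Of 46 members that averaged 1 RPM or more in the 2 young berry libraries, 20 were more than 2 times lower in the mutant and 0 were higher, against 1.96% and 0.378% of all genes. Counting any size, 38 of 46 were lower, against 55.5% of all genes. On the log2 scale the median ratio of the clones was -0.72 for the members, a level 1.65 times lower in the mutant, and -0.03 for all genes. In the 101 genes with a smallest ratio from 5 to under 20, the median was -0.17, with 7 lower and 1 higher. Over all 56 members 48 were lower by any size. The counting interval lay below 1 in 42 of the 54 members with reads in both libraries and above 1 in 6, against 30.0% and 20.5% of all genes with reads in both. With 1 library on each side there is no test of the clones. A count of 0 reads was found for VIT_04s0079g00690 and VIT_13s0067g02300 in mutant young berries, which allows up to 0.0427 RPM, against 0.277 and 1.11 RPM in those of the wild-type. Against this floor of 3 reads they were at least 6.49 and 26.0 times lower.

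The lowest ratios came from members that the mutant young berry hardly held. VIT_01s0011g05110 had 398 reads (4.41 RPM) in young berries of the wild-type and 1 read (0.0142 RPM) in those of the mutant, a level 310.01 times lower (55.3 to 12275). VIT_11s0016g04920 had 401 reads (4.44 RPM) and 2 reads (0.0284 RPM), 156 times lower (42.95 to 1294), and these wide intervals reflect how few reads there were. In ripe berries these genes had 2017 and 1612 RPM in the wild-type and 1761 and 1284 RPM in the mutant, and were 1.15 and 1.26 times lower there. Their flower levels were low as well, at 0.302 and 0.583 RPM in the wild-type and 0.00 and 0.205 RPM in the mutant. VIT_05s0049g00760 had 13.95 RPM (wild-type) and 1.38 RPM (mutant) in young berries, 10.1 times lower (interval 8.23 to 12.6). VIT_19s0090g01370 had 18.6 and 3.65 RPM, 5.09 times lower (4.46 to 5.83), and VIT_05s0049g00510 had 13.9 and 3.09 RPM, 4.51 times lower (3.90 to 5.24). In ripe berries the last 3 genes were higher in the mutant.

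At the other end, VIT_02s0012g01040 had 1.19 RPM in young berries of the wild-type and 2.42 RPM in those of the mutant, a ratio of 2.04 (1.59 to 2.62), or 1.73 with 0.5 RPM added. VIT_01s0010g02030 had 65.1 and 74.8 RPM (ratio 1.15, interval 1.11 to 1.19) and VIT_16s0022g00960 had 65.3 and 71.7 RPM (1.10, 1.06 to 1.14). VIT_17s0000g00430 had 20.2 and 22.8 RPM (1.13, 1.05 to 1.20). Among members with over 10 RPM in young berries there were thus genes at nearly the same level in both clones, and others, such as VIT_19s0090g01350 with 75.3 and 25.04 RPM, that were 3.01 times lower in the mutant (2.85 to 3.17).

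**Figure D3:**
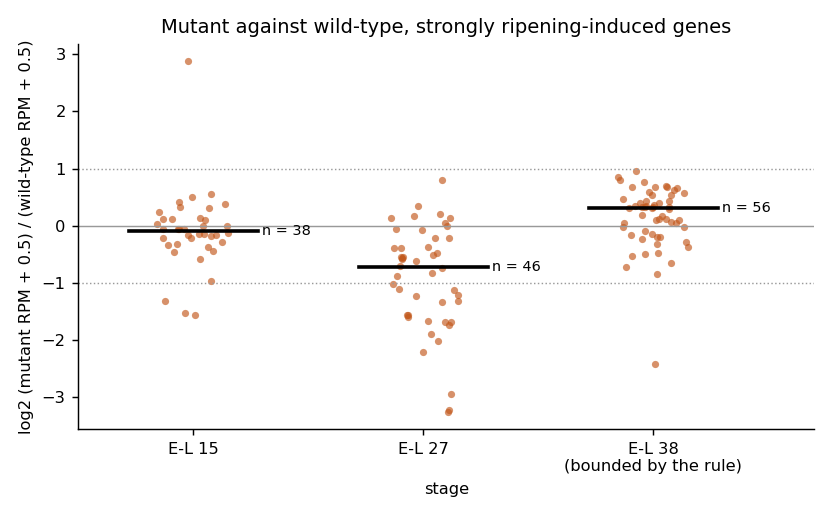
Ratio of mutant to wild-type (log2, 0.5 RPM added) of each member in flowers, young berries and ripe berries, among the members that averaged 1 RPM or more (38, 46 and 56), with a bar at their median and dotted lines at 2 times. The median was -0.09 at E-L 15, -0.72 at E-L 27 and 0.30 at E-L 38, where the rule bounds the ratio.

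The young berry levels are small beside the ripe ones, and the share they make of the ripe level differed between the clones. In wild-type E-L 27 the members stood at 0.120% to 4.71% of their E-L 38 level (median 1.21%), and 0 of 56 were below 0.1%. In mutant E-L 27 they stood at 0% to 3.32% (median 0.707%), and 10 of 56 were below 0.1%. At E-L 15 the lowest share was 0.0150% for the wild-type and 0% for the mutant, with 11 and 13 members below 0.1%. VIT_05s0049g00760 stood at 0.188% (wild-type) and 0.0138% (mutant) of its ripe level, VIT_01s0011g05110 at 0.219% and 0.00081%, and VIT_11s0016g04920 at 0.276% and 0.00221%. The 10 seed genes, whose summed level was high in ripe berries of the wild-type alone, stood at 0.163% to 1.16% of that level in its young berries. Whether a small part of ripe berry RNA entered the wild-type young berry library was not tested. In a step chosen after seeing the data, 0.2% of the E-L 38 level of the same clone was taken away from E-L 27. Done in both clones, this set 2 members of the wild-type and 18 of the mutant to 0. After it, 19 of 43 members were more than 2 times lower in the mutant and 0 higher, against 1.96% and 0.383% of all genes. In the mutant it removed all reads of those 18, so this count is no check of the difference between the clones. When 0.2% was taken away in the wild-type alone, 10 of 43 were lower and 1 was higher, against 1.86% and 0.394% of all genes. The median log2 ratio was then -0.45 for the members and -0.02 for all genes. Between flowers and young berries the step in both clones left 17 of 45 members higher and 4 lower in the wild-type. Over all genes these shares were 9.14% and 8.68%. In the mutant, where 18 members were set to 0, the step left 9 of 39 higher and 10 lower, against 8.22% and 9.23%. The median log2 ratio of the members was then 0.65 for the wild-type and -0.12 for the mutant.

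**Figure D4:**
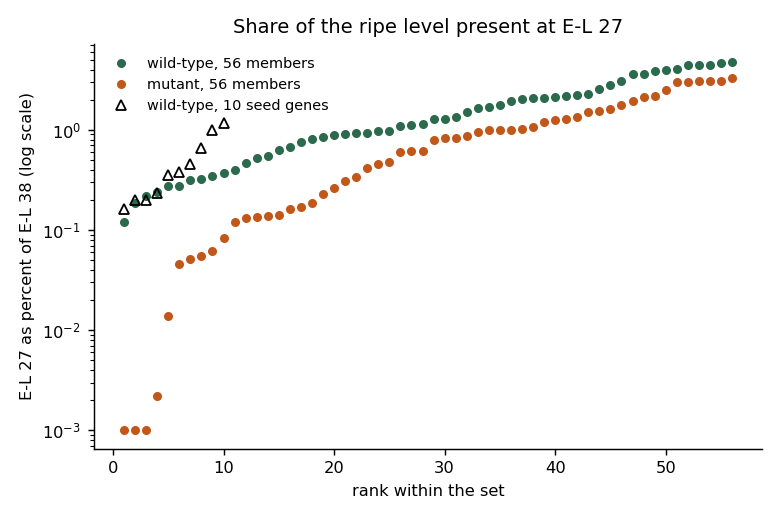
Level at E-L 27 as percent of the level at E-L 38 of the same clone (log scale), in rank order, for each member in either clone, and for the 10 seed genes in the wild-type; values under 0.001% are drawn at 0.001%. The members lay between 0.120% and 4.71% in the wild-type, while 10 of 56 lay below 0.1% in the mutant.

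In flowers the clones were closer. Of 38 members that averaged 1 RPM or more in the flower libraries, 3 were more than 2 times lower in the mutant and 1 was higher, against 0.59% and 0.207% of all genes. Counting any size, 23 of 38 were lower, against 54.5% of all genes, and the median log2 ratio was -0.09 for the members and -0.02 for all genes. The lower genes were VIT_05s0049g00520 (3.53 and 0.898 RPM, 3.93 times lower, interval 3.07 to 5.10), VIT_05s0049g00760 (1.80 and 0.284 RPM, 6.35 times lower, 4.15 to 10.1) and VIT_05s0020g03860 (6.05 and 2.14 RPM, 2.83 times lower, 2.40 to 3.36), the last of which was chosen after its values were seen. Below the minimum of 1 RPM, VIT_19s0090g01350 had 1.36 and 0.102 RPM, VIT_19s0090g01370 had 1.43 and 0.182 RPM, and VIT_06s0004g02560 had 1.37 and 0.273 RPM. Of these 6, all but VIT_05s0020g03860 were among the 12 members with the most reads in ripe berries. Over all 56 members 37 were lower by any size in mutant flowers.

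The higher gene was VIT_05s0049g00770. It had 1.005, 5.19 and 470 RPM in the wild-type and 10.5, 1.44 and 851 RPM in the mutant, so that its flower level was 10.5 times as high in the mutant (interval 8.45 to 13.1). Its neighbours by identifier, VIT_05s0049g00720 to VIT_05s0049g00810, were higher in the mutant flowers too, except VIT_05s0049g00760. VIT_05s0049g00720 had 3.85 RPM in flowers of the wild-type and 19.0 RPM in those of the mutant, and VIT_05s0049g00780 had 0.443 and 11.4 RPM. The adjoining member VIT_05s0049g00760 went the opposite way at E-L 15, with 1.80 and 0.284 RPM. At E-L 38 these neighbours were low: VIT_05s0049g00720 had 21.6 and 9.86 RPM and VIT_05s0049g00780 had 2.50 and 4.12 RPM, against 7428 and 10027 RPM of VIT_05s0049g00760.

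**Figure D5:**
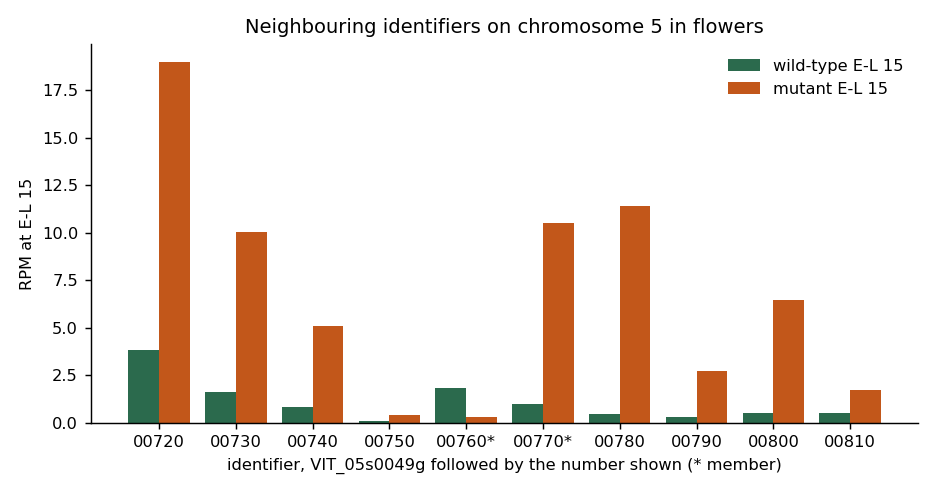
RPM in flowers (E-L 15) of 10 genes with consecutive identifiers on chromosome 5, VIT_05s0049g00720 to VIT_05s0049g00810, 1 bar for each clone's library, with the 2 members starred. The mutant was above the wild-type in 9 of the 10, and VIT_05s0049g00760 was the exception.

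In ripe berries the mutant to wild-type ratio was bounded by the rule and is a description. The mutant was higher in 38 of 56 members and lower in 18, whereas 61.9% of all genes averaging 1 RPM or more were lower. The median ratio of the members was 1.23, and past 2 times 1 was lower and 0 were higher. On the log2 scale the median ratio was 0.30 for the members and -0.08 for all genes. Of all genes 6.38% were more than 2 times lower in the mutant and 1.47% higher. TMM factors moved the members' median to 0.42. The member that stood apart was VIT_03s0088g00710, with 611 RPM in ripe berries of the wild-type and 114 RPM in those of the mutant, 5.36 times lower (interval 5.24 to 5.49). Its flower and young berry levels were 0.842 and 4.97 RPM in the wild-type and 0.818 and 1.14 RPM in the mutant. Next came VIT_04s0008g01520 with 190 and 106 RPM at E-L 38 (1.79 times lower, 1.74 to 1.84), VIT_04s0079g00690 with 231 and 140 RPM (1.65 times lower, 1.61 to 1.69), and VIT_14s0081g00030 with 1475 and 935 RPM (1.58 times lower, 1.56 to 1.59). VIT_01s0011g03670 had 643 and 447 RPM, and VIT_08s0007g08280 had 388 and 275 RPM. These intervals are narrow because the counts are high, and they say nothing of how 2 vines or 2 bunches of 1 clone differ.

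Nearest to the upper bound was VIT_16s0022g00960, with 2869 RPM in ripe berries of the wild-type and 5596 RPM in those of the mutant, a ratio of 1.95 (1.94 to 1.96). VIT_05s0049g00770 followed with 470 and 851 RPM (1.81, 1.79 to 1.83), and VIT_01s0127g00470 had 291 and 505 RPM (1.74, 1.71 to 1.77). VIT_02s0012g00500, VIT_03s0038g03570 and VIT_01s0137g00430 had ratios of 1.71, 1.62 and 1.61. Of these 6 members with the highest ratios at E-L 38, 3 were lower in the mutant at E-L 27: VIT_05s0049g00770 with 5.19 and 1.44 RPM, VIT_01s0127g00470 with 5.98 and 4.17 RPM, and VIT_03s0038g03570 with 14.2 and 10.7 RPM.

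By identifier the members were spread over all 19 chromosomes, with 1 member on an unplaced sequence. Chromosomes 1 and 8 held 6 members each (10.7%), beside 5.27% and 5.63% of all gene models. Chromosomes 5, 18 and 19 held 5 each (8.93%), beside 5.45%, 7.63% and 4.42% of all gene models. In 5 places 2 members lay within 50 identifier numbers of each other, namely VIT_05s0049g00510 with VIT_05s0049g00520, VIT_05s0049g00760 with VIT_05s0049g00770, VIT_08s0056g01590 with VIT_08s0056g01600, VIT_18s0001g06060 with VIT_18s0001g06070, and VIT_19s0090g01350 with VIT_19s0090g01370. Members of a pair did not always share their early pattern. VIT_18s0001g06070 had 4.01, 5.18 and 345 RPM in the wild-type and 5.35, 3.81 and 375 RPM in the mutant, within 2 times between flowers and young berries in both clones, whereas VIT_18s0001g06060 fell. In the pair on chromosome 8 both genes fell, as given above: VIT_08s0056g01590 had 6.09, 3.67 and 144 RPM in the wild-type and 4.57, 1.99 and 123 RPM in the mutant, and VIT_08s0056g01600 had 114, 69.7 and 3159 RPM and 110, 54.0 and 3610 RPM. The next identifier there, VIT_08s0056g01610, missed the rule with a smallest ratio of 14.5. Beside the first pair on chromosome 5, VIT_05s0049g00550 missed it with 16.5 and also, at 73.4 RPM in mutant ripe berries, fell short of 100 RPM. Reads with more than 1 position were dropped by the authors, so that near-identical neighbours may be undercounted, and their values are uncertain to that extent.

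Among the other members with many ripe berry reads, VIT_06s0004g02560 had 1.37, 10.1 and 3198 RPM in the wild-type and 0.273, 2.83 and 5119 RPM in the mutant. VIT_08s0007g06040 had 20.5, 42.3 and 2587 RPM and 20.5, 28.7 and 2417 RPM, with flower levels that nearly coincided and a ripe level slightly lower in the mutant. VIT_01s0010g02030 had 39.7, 65.1 and 3098 RPM and 38.0, 74.8 and 3865 RPM, and it rose by 0.85 ± 0.17 on the log2 scale from flowers to young berries (edgeR adjusted p = 0.0347). VIT_16s0022g00960 rose by 1.65 ± 0.27 in that step (edgeR adjusted p = 0.0239), from 19.7 to 65.3 RPM in the wild-type and from 24.7 to 71.7 RPM in the mutant. In these 3 members, all with at least 19.7 RPM before ripening, the widest clone ratio in flowers and young berries was that of VIT_08s0007g06040 at E-L 27, 0.681 with 0.5 RPM added. At the low end, VIT_08s0040g01200 had 0.292, 1.05 and 444 RPM in the wild-type and 0.0568, 0.270 and 438 RPM in the mutant, and its ripe levels differed by 1.01 times.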

How the data were processed

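Counts and RPM of 28059 gene models in 6 libraries were deposited by the authors. They used BWA, with the v1 transcripts of the 12x assembly as reference and up to 2 mismatches in the first 32 bases, and SAMtools to keep reads placed once. Versions are not given in the sources used here. The deposited RPM are these counts scaled by the uniquely mapped reads of the library, not by length. The members and lists were chosen with earlier results of these data known.

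The rule was applied to the RPM. Genes averaging 1 RPM or more over the 2 libraries compared were called past 2 times, with 0.5 RPM added. Ratios of counts carry 95% exact conditional binomial (Clopper-Pearson) intervals, and a count of 0 is set against a floor of 3 reads. E-L 27 against E-L 15 was tested with edgeR 4.0.16 in R 4.3.3 (filterByExpr, TMM, glmQLFit and glmQLFTest, stage and clone, 2 residual degrees of freedom). The SE is the log2 change divided by the square root of F. DESeq2 1.42.0 was an alternative. Python 3.11.15, numpy 2.4.6, pandas 2.3.3, scipy 1.17.1 and matplotlib 3.10.9 were used. The fit was also run on simulated counts in which the clones did not differ. That run does not show how the fit behaves with clones taken as replicates. Alternatives were other added values, filters, scalings, equal depth, other thresholds of the rule, leaving out libraries, and 0.2% of E-L 38 taken away from E-L 27, added after seeing the data.

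Named are the annotated member, the 12 with the highest mean RPM at E-L 38, the 6 highest and 6 lowest clone ratios at E-L 38, the 5 highest and 5 lowest clone ratios at E-L 27 and stage ratios E-L 27 to E-L 15, the 6 largest smallest ratios, members within 50 identifier numbers and the 3 genes on each side of the threshold. VIT_13s0067g02300, with 0 reads in mutant E-L 27, and VIT_05s0020g03860 were named outside this list, after their values were seen. Families, promoters and proteins were not analysed here, because the gene table at hand carries no such identifiers (0 of 28059 matched).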

Additional observations from a re-analysis of the deposited data

Results flagged for a closer look

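VIT_05s0049g00770 moved in opposite directions between flower and young berry in the clones: with 0.5 RPM added, the ratio of E-L 27 to E-L 15 was 3.78 for the wild-type but 0.176 for the mutant. The levels behind it were 1.005 and 5.19 RPM in the wild-type and 10.5 and 1.44 RPM in the mutant. The difference was not tested, since each ratio rests on 2 libraries.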

How the results depend on the processing

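The number of members was 56, and 89 when 10 times was enough. In the mutant at E-L 15, 6 members instead of 3 were more than 2 times lower with no filter on low values. At E-L 27, 10 were lower and 1 higher in the mutant when 0.2% of E-L 38 was taken away in the wild-type alone. Between E-L 27 and E-L 15, 4 members were lower in the wild-type when 0.2% was taken away in both clones or the wild-type alone. In the mutant 9 were higher and 10 lower when 0.2% was taken away in both, which sets 18 of 56 members to 0 there. With the 4 libraries of E-L 15 and E-L 27 only, edgeR called 4807 genes higher and 4913 lower instead of 2529 and 2690. When each library was left out in turn, edgeR called 0 to 30 members higher and 0 to 6 lower, and 0 to 4889 genes higher and 0 to 4744 lower. The counts were 0 whenever an E-L 15 or E-L 27 library was left out, which leaves 1 library of that stage; the lone library is then assumed to vary like the others. Of 116 alternative values 85 were within 1.5 times of the value reported and 31 were not. The labels carry no replicate numbers. The term for clone pairs the libraries of a clone, and without it edgeR called 20 members higher and 3 lower, against 12.3% and 13.2% of all genes.

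With 1 library per clone and stage, intervals cover counting error only, and no clone difference at a single stage could be tested. Levels of a few reads, as in VIT_01s0011g05110 and VIT_11s0016g04920 in mutant E-L 27, are limited by depth, since a count of 3 reads is 0.0427 RPM there.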
